A study of Mus musculus with 8 samples.

Results

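Transcripts of 10 genes of the JAK-STAT pathway and its SOCS feedback loop were examined in sorted mouse eosinophils of the bone marrow and the small intestine. The genes were Cish, Socs1, Socs2, Socs3, Jak2, Stat3, Stat5a, Stat5b, Stat6 and Pim1, chosen by symbol, and all 10 were found among the 38392 genes measured. RNA sequencing had been done on 4 libraries per tissue, all from female wildtype C57/BL6 mice, and the labels name no treatment. Bone marrow eosinophils were sorted as CD11b+Ly6G-Ly6C-SiglecF+SSChi cells after the bone had been flushed and red cells lysed, without digestion or bead selection. Small intestinal eosinophils were sorted as CD11b+MHC-II-SiglecF+SSChi cells after the epithelium had been stripped, the tissue digested with warm collagenase, and the cells preselected on anti-CD11b microbeads. Tissue and handling therefore changed together and cannot be told apart. The labels do not say which column of the table belongs to which mouse, so each library goes by its column name, with the bone marrow libraries BM_1, BM_3, BM_4 and BM_5 and the small intestine libraries SI_6, SI_7, SI_10 and SI_11. P-values measure the spread between these libraries.

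Cytokines such as IL-5, IL-3, GM-CSF, IL-4 and IL-13 act on receptors that have no kinase activity of their own and rely on bound Janus kinases (JAKs). The kinases phosphorylate the receptor and then STAT proteins, which pair, enter the nucleus and bind DNA. STAT5 is the main STAT of the IL-5 and GM-CSF receptors that maintain eosinophils, STAT6 that of IL-4 and IL-13, and STAT3 that of IL-6 and IL-10. Among the genes that STATs switch on are Cish and the Socs genes, whose proteins bind the receptor or the JAK and limit the signal, and Pim1, a serine/threonine kinase that promotes survival. STAT3 and STAT5 bind the palindromic core TTCNNNGAA and STAT6 prefers a core with a wider gap, and for this reason promoter sequences of the feedback genes are shown first.

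RefSeq promoter windows on GRCm38.p6, from 250 bases before to 50 bases after the start site, were at hand for 9 of the 10 genes, in 12 windows. Socs2 had no window. The core TTCNNNGAA reads alike on both strands and was found 2 times in the window of Cish and 1 time in that of Socs3. It was not found in the windows of Socs1, Jak2, Stat3, Stat5a, Stat5b, Stat6 or Pim1. Among all 32851 windows of the table, 8.3% held the core and 0.457% held it 2 or more times. Matches in Cish began at the RefSeq start site itself and at base 12 counted from it. The match in Socs3 lay 154 bases before its RefSeq start site. The stretches below, all 5′ to 3′ in the direction of the gene with matches to the core in capitals, are those of both genes with a match and, for comparison, of Pim1, which has none there. They are chr9:107296539-107296688 (plus strand, the last 30 bases from the RefSeq start site on), chr11:117969367-117969566 (minus strand) and chr17:29490585-29490784 (plus strand). The annotated gene ranges given further below begin upstream of these start sites, at 107296026 for Cish, 117970047 for Socs3 and 29490753 for Pim1. By those ranges the stretches of Cish and Socs3 lie inside the gene, as does the end of that of Pim1.
Cish: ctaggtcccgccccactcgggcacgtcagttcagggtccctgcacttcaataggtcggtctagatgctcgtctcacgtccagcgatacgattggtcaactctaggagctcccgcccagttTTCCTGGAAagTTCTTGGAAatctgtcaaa
Socs3: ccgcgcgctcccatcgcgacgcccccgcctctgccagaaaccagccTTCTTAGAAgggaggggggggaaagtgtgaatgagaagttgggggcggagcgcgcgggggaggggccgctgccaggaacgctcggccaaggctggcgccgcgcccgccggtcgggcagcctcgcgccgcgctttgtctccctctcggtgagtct
Pim1: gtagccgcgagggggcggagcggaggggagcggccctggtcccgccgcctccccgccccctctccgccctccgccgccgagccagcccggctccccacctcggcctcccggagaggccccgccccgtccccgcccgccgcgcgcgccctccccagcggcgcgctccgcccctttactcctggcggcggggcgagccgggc
The related cores TTCNNGAA and TTCNNNNGAA, also palindromic, were searched too. The first occurred once, in Jak2, as TTCCCGAA, and in 8.52% of all windows, and the second occurred in no window of the 10 genes and in 6.95% of all. A match is a description of the letters and not a measured binding site.

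The libraries held 11508002 to 21289164 reads in genes. The sorted populations were checked against 11 lists of marker genes. Small intestinal libraries had 16954 to 25122 summed normalised counts (reads divided by the size factor of the library) of 5 eosinophil markers, and bone marrow libraries 2349 to 3323. None of these markers was at 0 throughout a tissue. Of the 5, 3 were higher and 2 lower in small intestine. Ccr3, an eotaxin receptor, made up most of the small intestine sum at 16351 ± 2623 normalised counts, against 70.9 ± 25.7 in bone marrow. Both markers that were lower encode granule proteins, Prg2 with a fall from 1831 ± 396 normalised counts in the marrow to 147 ± 40.7 in the intestine, and Epx, which encodes eosinophil peroxidase, from 349.9 ± 40.2 to 20.6 ± 9.06 (mean ± SD, n = 4; limma adjusted p = 1.66e-05 and 2.19e-05). The bone marrow libraries held 299566 to 382700 normalised counts of 6 neutrophil precursor markers, against 407.2 to 504.9 in small intestine, and Mpo, which encodes myeloperoxidase of neutrophil granules, stood at 149860 ± 19352 there (mean ± SD, n = 4). The bone marrow libraries, labelled as eosinophils, thus held far more transcripts of neutrophil precursor markers than of eosinophil markers. Every tissue difference below compares libraries that differ in this way, and the part of the precursor transcripts in it was not tested. In bulk RNA, fewer cells of a type and less RNA per cell cannot be told apart. All 10 genes of a tissue dissociation response list were also higher in small intestine, with 83834 to 109553 summed normalised counts against 890.6 to 1227, led by Dusp1, and their part was not tested either. Summed epithelial markers, led by Cdh1, spanned 1950.5 to 12036 in small intestine and 53.6 to 88.9 in bone marrow, and macrophage and dendritic markers, led by Cd74, 2854 to 10942 and 546.7 to 696.5. Endothelial markers reached 7246 to 9646 and 349.6 to 469.8, mostly from Pecam1, so their sum describes chiefly that gene and not a cell type. Fibroblast markers, led by Col3a1, spanned 150.5 to 709.5 and 5.74 to 53.9. B cell and plasma markers spanned 416.8 to 2608 in small intestine and 202.2 to 309.1 in bone marrow. Jchain carried this sum in small intestine and Cd79b in bone marrow, and of the 4 genes Jchain was higher and Cd79b lower in small intestine, with a median difference of -0.32 on the deposited log2 scale. T cell markers, led by Cd3e, spanned 27.3 to 59.1 and 15.3 to 45.6. Erythroid markers, led by Hbb-bs, and mast cell and basophil markers, led by Kit, were higher in bone marrow, at 723.2 to 933.0 against 1.19 to 13.1 and 2625 to 3625 against 549.1 to 1852.

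Of the 10 JAK-STAT genes, 8 were higher in the small intestine libraries than in the bone marrow libraries and 0 were lower, at a limma adjusted p under 0.05. Among all genes 34.9% passed this test, 22% as higher and 12.9% as lower in small intestine. With each library centred on its median instead, those passing split into 4285 higher and 10216 lower, in place of 8465 and 4937, and with quantile normalisation into 5954 and 7032. In a fit restricted to the 16215 genes that averaged 10 reads or more, 11824 passed, 6362 as higher and 5462 as lower. Of the 10 members, 9 were in that fit and 8 passed, all as higher. The 8 genes were Socs2, Cish, Pim1, Socs3, Jak2, Stat6, Stat5b and Stat3, in falling order of their difference on the deposited log2 scale. For the same 8 genes the values of the tissues did not overlap, which held for 34.3% of all genes. Socs1 and Stat5a were the members that did not pass. The median difference of the 10 was 1.998 on the deposited log2 scale, against 0.37 for all genes. An unadjusted p under 0.05 gave 0 lower members as well, and limma voom on reads recovered from the deposited values also called 8. Median-centring called 5 of the 10, all higher, and quantile normalisation called 9, of which 8 were higher and 1, Socs1, lower.

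**Figure D1:**
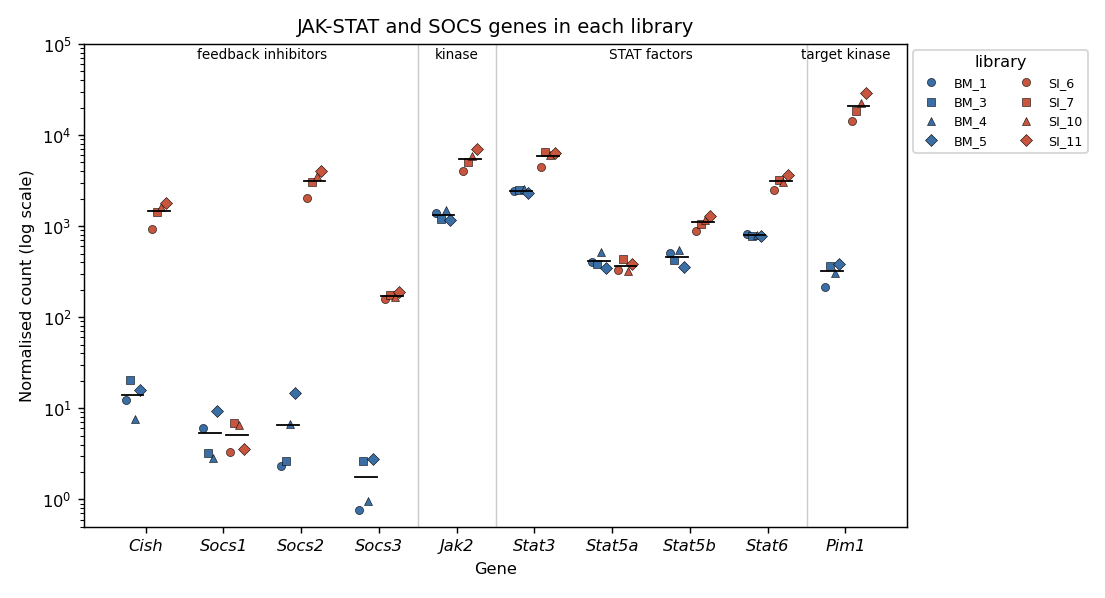
Normalised counts (reads divided by the library's size factor, log scale) of the 10 genes in each library, bone marrow in blue and small intestine in red, with black bars at the tissue means of 4 libraries. All 4 small intestine libraries lie above all 4 bone marrow libraries for 8 genes, and the tissues overlap for Socs1 and Stat5a.

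The largest differences were those of the feedback genes Socs2 and Cish. Socs2 encodes a SOCS-box protein best known for limiting growth hormone and STAT5 signalling. It lies on chromosome 10 (GRCm38, 95385362 to 95417180). Bone marrow libraries BM_1, BM_3, BM_4 and BM_5 had 2.30, 2.61, 6.70 and 14.9 normalised counts of Socs2, from 30 reads in all, and SI_6, SI_7, SI_10 and SI_11 had 2047, 3040, 3525 and 4038. The lowest small intestine library thus lay far above the highest bone marrow library. The difference was 8.45 ± 0.42 on the deposited log2 scale (± SE, n = 4 each; limma, adjusted p = 2.84e-06), and 40 genes of the whole table had a larger one. The ratio of mean normalised counts was 478. This ratio rests on few reads in bone marrow, with a 95% interval for the ratio of pooled reads of 364.6 to 772.3 that covers counting error only. Without BM_5, which gave 16 of the 30 bone marrow reads, the ratio of means was 817.

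Cish encodes CIS, a SOCS family protein that binds activated cytokine receptors at STAT5 docking sites. It lies on chromosome 9 (107296026 to 107302784) and is one of the genes whose promoter stretch is printed above. Its normalised counts were 12.3, 20.2, 7.66 and 15.8 in BM_1, BM_3, BM_4 and BM_5, and 936.6, 1424, 1637 and 1798 in SI_6, SI_7, SI_10 and SI_11. No library of a tissue came near those of the other. Cish was higher by 6.38 ± 0.31 in small intestine (deposited log2 scale, limma adjusted p = 2.49e-06), with a ratio of means of 104. The 72 bone marrow reads gave a counting interval of 78.8 to 127.2 for the ratio of pooled reads. Predicted genes Gm17040 and Gm17041 overlap Cish on the opposite strand, and Gm17040 stood at 1.34 normalised counts in the marrow and 11.4 in the intestine, far fewer than Cish.

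Socs3 encodes the inhibitor that binds JAKs together with receptors of the IL-6 and G-CSF type. It lies on chromosome 11 (117966079 to 117970047), and its promoter stretch is printed above as well. Bone marrow libraries had 0.766, 2.61, 0.957 and 2.79 normalised counts in the order BM_1, BM_3, BM_4 and BM_5, from 9 reads in all, against 159.4, 173.3, 165.2 and 187.3 in SI_6, SI_7, SI_10 and SI_11. The 4 small intestine values lay close together, with an SD of 12.1 around a mean of 171.3, and none overlapped with bone marrow. The difference was 5.23 ± 0.23 on the deposited log2 scale (limma adjusted p = 1.8e-06) and the ratio of means 96.2. With so few bone marrow reads the counting interval of the pooled ratio ran from 49.2 to 206.9.

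Socs1, whose protein binds JAKs directly and is best known as the brake of interferon signalling, did not pass the test. It lies on chromosome 16 (10782240 to 10785536). Its normalised counts were 6.13, 3.26, 2.87 and 9.30 in BM_1, BM_3, BM_4 and BM_5, and 3.27, 6.93, 6.56 and 3.56 in SI_6, SI_7, SI_10 and SI_11. The tissues overlapped, and reads were few, 26 in bone marrow and 17 in small intestine. The difference was -0.02 ± 0.30 (deposited log2 scale, 95% interval -0.71 to 0.68, limma adjusted p = 0.969), so a difference was not detectable at this depth. The counting interval for the ratio of pooled reads, 0.486 to 1.83, lies below those of Cish, Socs2 and Socs3. After quantile normalisation Socs1 was lower in small intestine, at -1.08 (limma adjusted p = 0.0056). The difference was positive, without passing, in limma voom (0.05) and without BM_1, BM_5, SI_6 or SI_11 (0.05, 0.19, 0.10 and 0.07).

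Jak2 encodes the kinase bound by the shared beta chain of the IL-5, IL-3 and GM-CSF receptors. It lies on chromosome 19 (29251828 to 29313080). Normalised counts were 1407, 1213, 1490 and 1154 in BM_1, BM_3, BM_4 and BM_5, and 4027, 5094, 5912 and 6967 in SI_6, SI_7, SI_10 and SI_11. The tissues did not overlap, and the small intestine libraries differed among themselves more than the bone marrow libraries. Jak2 was higher in small intestine by 2.04 ± 0.23 on the deposited log2 scale (limma adjusted p = 0.000187), a ratio of means of 4.18. After median-centring the difference was 1.14 (limma adjusted p = 0.0426).

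Among the STAT genes, Stat6, Stat5b and Stat3 were higher in small intestine and Stat5a did not pass the test. Stat6 (chromosome 10, 127642986 to 127660957) encodes the transcription factor of IL-4 and IL-13 signals. Its normalised counts were 819.8, 780.0, 795.2 and 774.4 in BM_1, BM_3, BM_4 and BM_5, and 2507, 3241, 3070 and 3629 in SI_6, SI_7, SI_10 and SI_11. Bone marrow values of Stat6 were the most even of any member, and the tissues did not overlap. The difference was 1.96 ± 0.19 (deposited log2 scale, limma adjusted p = 8.06e-05), a ratio of means of 3.93. Stat3 (chromosome 11, 100885098 to 100939540) transmits IL-6 and IL-10 signals. It had 2452, 2478, 2568 and 2290 normalised counts in BM_1, BM_3, BM_4 and BM_5, and 4460, 6526, 5985 and 6364 in SI_6, SI_7, SI_10 and SI_11. The tissues were again apart, with SI_6 nearest to bone marrow. Stat3 differed by 1.24 ± 0.19 (limma adjusted p = 0.00124), a ratio of means of 2.38.

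Stat5a and Stat5b encode near-identical transcription factors of IL-5 and GM-CSF signals and lie next to each other on chromosome 11 (100859351 to 100885169 and 100780731 to 100850724). Stat5b had 508.0, 429.1, 541.6 and 357.0 normalised counts in BM_1, BM_3, BM_4 and BM_5, and 886.3, 1064, 1171 and 1277 in SI_6, SI_7, SI_10 and SI_11. All small intestine libraries lay above bone marrow, and the difference was 1.26 ± 0.22 on the deposited log2 scale (limma adjusted p = 0.00208), a ratio of means of 2.40. Stat5a had 406.8, 383.5, 524.4 and 351.4 normalised counts in BM_1, BM_3, BM_4 and BM_5, and 328.6, 438.2, 319.4 and 380.5 in SI_6, SI_7, SI_10 and SI_11. The tissues overlapped for Stat5a, and its difference was -0.18 ± 0.21 (95% interval -0.66 to 0.30, limma adjusted p = 0.524). The genes share sequence, since 5.12% of the 75-base stretches of Stat5a exons and 6.99% of those of Stat5b occur in the other gene, so the treatment of such reads, which is not given in the sources used here, could move a small share of counts between them. Stat3 and Stat5a overlap by 72 bases on opposite strands. Calls of Stat3, Stat5b and Stat6 also depended on scaling. After each library was centred on its median their differences were 0.34, 0.36 and 1.06 with limma adjusted p-values of 0.587, 0.565 and 0.0611, while the median difference of all genes moved from 0.37 to -0.53. Stat3, Stat5b and Stat6 passed when centring used only genes that averaged 10 reads or more (limma adjusted p = 0.00548, 0.00661 and 0.000329). That setting was chosen after seeing the data. They also passed after quantile normalisation and in limma voom.

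Pim1 encodes a survival kinase that STAT5 and STAT3 induce. It lies on chromosome 17 (29490753 to 29496112). Its normalised counts were 213.0, 365.9, 308.1 and 386.7 in BM_1, BM_3, BM_4 and BM_5, and 14118, 18559, 22498 and 28807 in SI_6, SI_7, SI_10 and SI_11. No overlap was seen, with SI_6 lowest and SI_11 highest of the small intestine libraries. Pim1 was higher in small intestine by 6.01 ± 0.29 (deposited log2 scale, limma adjusted p = 2.53e-06), with a ratio of means of 65.9. Its bone marrow level rests on 1577 reads, far more than those of Socs2 or Socs3. A predicted gene on the opposite strand, Gm26885, shares 7.12% of the 75-base stretches of Pim1 and stood at 1.12 normalised counts in the marrow and 7.12 in the intestine.

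Levels of different genes can be compared only per length, here as normalised counts per kb of merged exons of all annotated isoforms; this length exceeds that of a single transcript where isoforms differ. In bone marrow the order was Jak2 (261.6 per kb), Stat3 (256.9), Stat6 (180.0), Pim1 (94.7), Stat5b (82.9), Stat5a (58.4), Cish (2.18), Socs1 (1.85), Socs2 (0.695) and Socs3 (0.616). Ranges over the 4 libraries overlapped for the neighbours Jak2 and Stat3, Pim1 and Stat5b, and Stat5b and Stat5a, and for each pair of neighbours from Cish down to Socs3. Kinases and STAT genes thus stood above all feedback genes in every bone marrow library. In small intestine the order was Pim1 (6245 per kb), Jak2 (1093), Stat6 (706.9), Stat3 (612.3), Socs2 (331.8), Cish (225.7), Stat5b (198.5), Socs3 (59.3), Stat5a (51.4) and Socs1 (1.75). Overlapping neighbours there were Jak2 and Stat6, Stat6 and Stat3, Socs2 and Cish, Cish and Stat5b, and Socs3 and Stat5a. Socs2 stood above Stat5a in every small intestine library and below it in every bone marrow library. Among all genes ranked by level per kb, Pim1 moved from place 5285 in bone marrow to place 57 in small intestine.

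**Figure D2:**
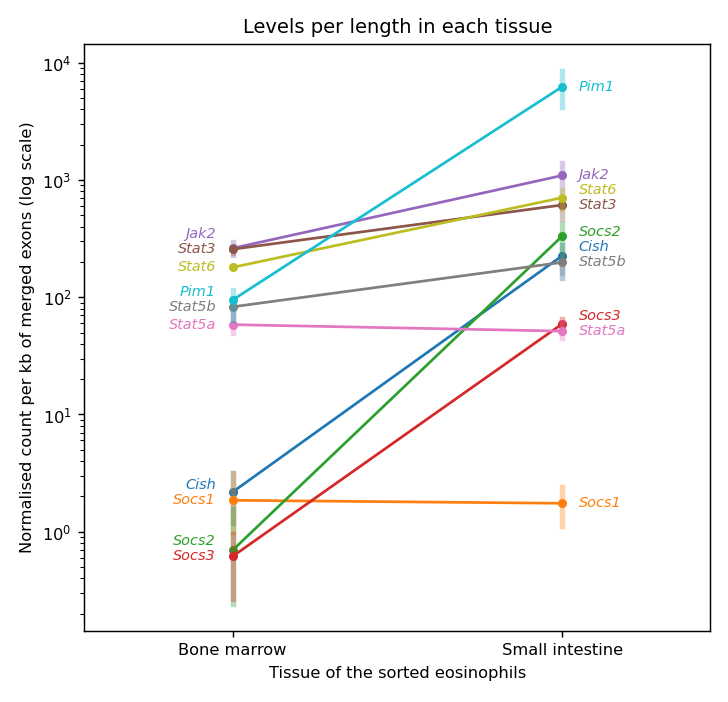
Mean level per kb of merged exons (normalised counts per kb, log scale) of the 10 genes in bone marrow and small intestine, with lines joining the same gene and shaded bars for the range of 4 libraries. Pim1 goes from 94.7 to 6245 and Socs2 from 0.695 to 331.8, while Stat5a (58.4 and 51.4) and Socs1 (1.85 and 1.75) run nearly level.

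The makeup of the STAT and feedback groups is given here as a description without a test. Summed over Stat3, Stat5a, Stat5b and Stat6, the level per kb was 578.1 ± 38.7 in bone marrow, against 1569 ± 231 in small intestine (mean ± SD, n = 4). Of this sum, Stat6 took 31.2% ± 1.69 in bone marrow and 45.1% ± 1.23 in small intestine. Stat5a took 10.1% ± 1.19 in bone marrow, against 3.30% ± 0.45 in small intestine. Stat3 took 44.5% and 39.0%, and Stat5b 14.3% and 12.7%. Stat6 was the gene with the largest share in every small intestine library and Stat3 in every bone marrow library. Of Stat5a and Stat5b together, Stat5b took 56.7% to 61.7% per kb in bone marrow and 75.8% to 82.5% in small intestine, ranges that did not overlap.

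The 4 feedback genes together amounted to 5.34 ± 2.10 normalised counts per kb in bone marrow, against 618.5 ± 150.7 in small intestine. Per unit of the summed STAT level this came to 0.00946 in bone marrow, against 0.390 in small intestine. In small intestine Socs2 took 53.4% ± 1.52 of the feedback sum and Cish 36.4% ± 0.98, with Socs3 at 9.98% and Socs1 at 0.289%. The shares of Socs2 and Cish varied little from library to library, while that of Socs3 ran from 8.35% to 13.2% and that of Socs1 from 0.159% to 0.395%. In bone marrow Cish took 41.8% ± 11.8 and Socs1 34.2% ± 11.2, while Socs2 took 12.8% ± 8.90 and Socs3 11.1% ± 4.41. The bone marrow shares rest on 9 to 72 reads per gene and varied more between libraries.

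**Figure D3:**
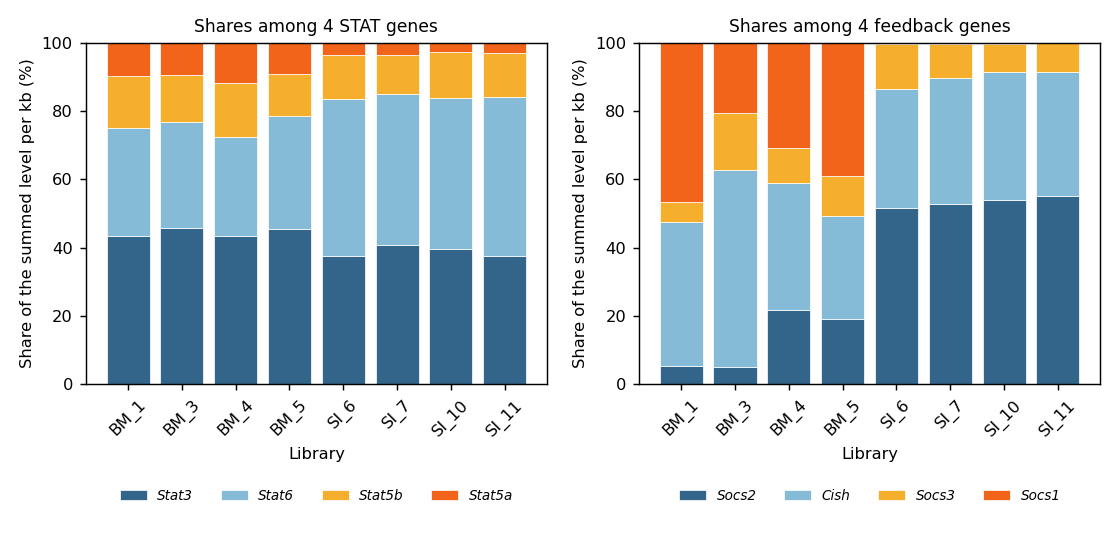
Share of each gene in the summed level per kb of 4 STAT genes (left) and of 4 feedback genes (right), in percent, one bar per library. Stat6 covers 31.2% on average in bone marrow against 45.1% in small intestine. Socs1 takes 34.2% of the feedback sum in bone marrow, from 26 reads, and 0.289% in small intestine. Its own level per kb is nearly the same in both (1.85 and 1.75).

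Small intestine libraries ranked alike for most of these genes. SI_6 was the lowest small intestine library for 9 of the 10 members, Stat5a being the exception, and SI_11 was the highest for 7 and SI_7 for 3. Among the 8465 genes called higher in small intestine, SI_6 was the lowest small intestine library for 41.8%. Of the same genes, SI_11 was the highest for 29.2% and SI_7 for 18.8%. The members counted above include Socs1 and Stat5a, which were not called. Relative to the mean of the other small intestine libraries, SI_6 stood at 0.579 for Socs2, 0.578 for Cish, 0.606 for Pim1 and 0.672 for Jak2, but at 0.909 for Socs3. SI_6 also had the highest summed epithelial markers, 3.88 times the mean of the others, and macrophage and dendritic markers at 2.18 times, with eosinophil markers at 0.772 times. The part of other cell types in the order of these libraries was not tested. Without SI_6 the differences of the 8 called members were larger, for example 2.18 for Jak2 and 1.36 for Stat3 on the deposited log2 scale. In bone marrow BM_5 was the lowest library for Jak2, Stat3, Stat5a, Stat5b and Stat6 and the highest for Socs1, Socs2, Socs3 and Pim1. BM_5 held reads in 30886 genes and the other bone marrow libraries in 19713 to 24592. Without BM_5 and SI_6 together the same 8 members passed.

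**Figure D4:**
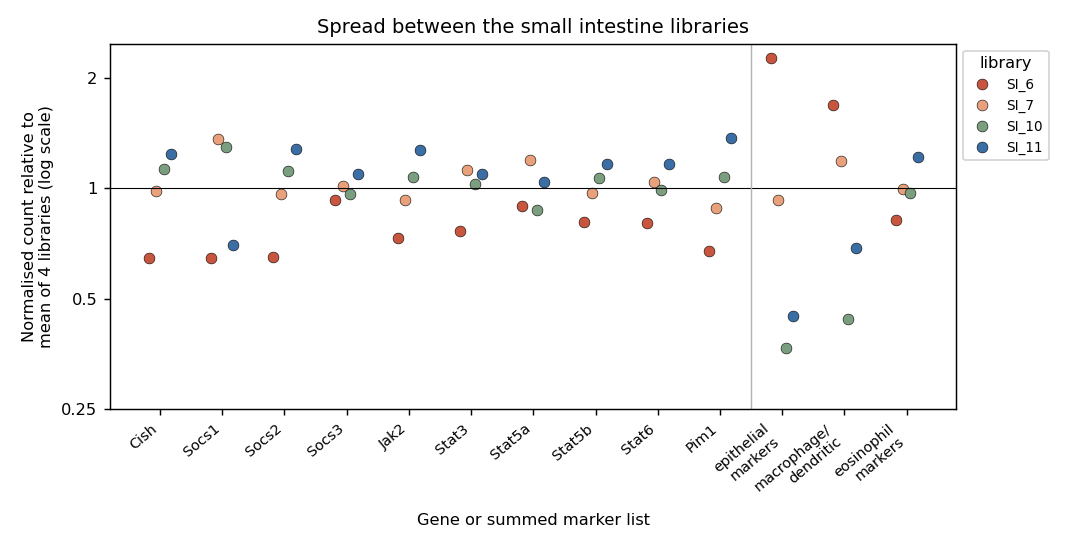
Normalised count of each gene, and of 3 summed marker lists, in each small intestine library relative to the mean of the 4 libraries (log scale, 1 being the mean). SI_6 is the lowest point for 9 of 10 genes and the highest for epithelial and macrophage and dendritic markers.

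Other JAK, STAT and SOCS genes divided within their families, while both other PIM kinases were higher in small intestine. Of 11 examined, 5 were higher and 1 lower in small intestine, with a median difference of 0.56 on the deposited log2 scale beside 0.37 for all genes. In all, 54.5% of the 11 passed, beside 34.9% of all genes. That was less than the share among genes that averaged 10 reads or more, 11824 of 16215 in their own fit. Jak1, the kinase partner of many cytokine receptors, was higher by 1.36 ± 0.18 (limma adjusted p = 0.000514), and Jak3, which serves receptors with the common gamma chain, was lower, at -0.85 ± 0.17 (limma adjusted p = 0.00439). Tyk2, a JAK of type I interferon receptors among others, differed by 0.20 (limma adjusted p = 0.476). The rise of Jak1 did not pass after median-centring (0.46, limma adjusted p = 0.443). Stat4, best known for IL-12 signals, was higher by 3.10 ± 0.26 (limma adjusted p = 4.12e-05), from 309.5 ± 26.8 normalised counts in bone marrow to 2779 ± 790 in small intestine. Stat2, which serves type I interferon signals, differed by 0.56 and did not pass (limma adjusted p = 0.0541). Socs5 was higher by 1.04 ± 0.26 (limma adjusted p = 0.0144), though not after median-centring (0.14, limma adjusted p = 0.834). Socs4, Socs6 and Socs7 gave 0.01, -0.62 and -0.23 and did not pass. Socs6 and Stat2 lay near the threshold, since Socs6 passed as lower under 8 and Stat2 as higher under 9 of 18 alternatives, which included leaving out SI_6 for both (limma adjusted p = 0.0304 and 0.0324) and leaving out BM_5 or SI_10 for Stat2 (0.0465 and 0.0104). Of the other PIM kinases, Pim3 was higher by 5.17 ± 0.25 (limma adjusted p = 2.34e-06) and Pim2 by 2.19 ± 0.39 (limma adjusted p = 0.00252). In normalised counts, Pim3 went from 53.7 ± 16.2 in bone marrow to 2025 ± 305 in small intestine, and Pim2 from 24.0 ± 9.95 to 121.8 ± 47.4.

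**Figure D5:**
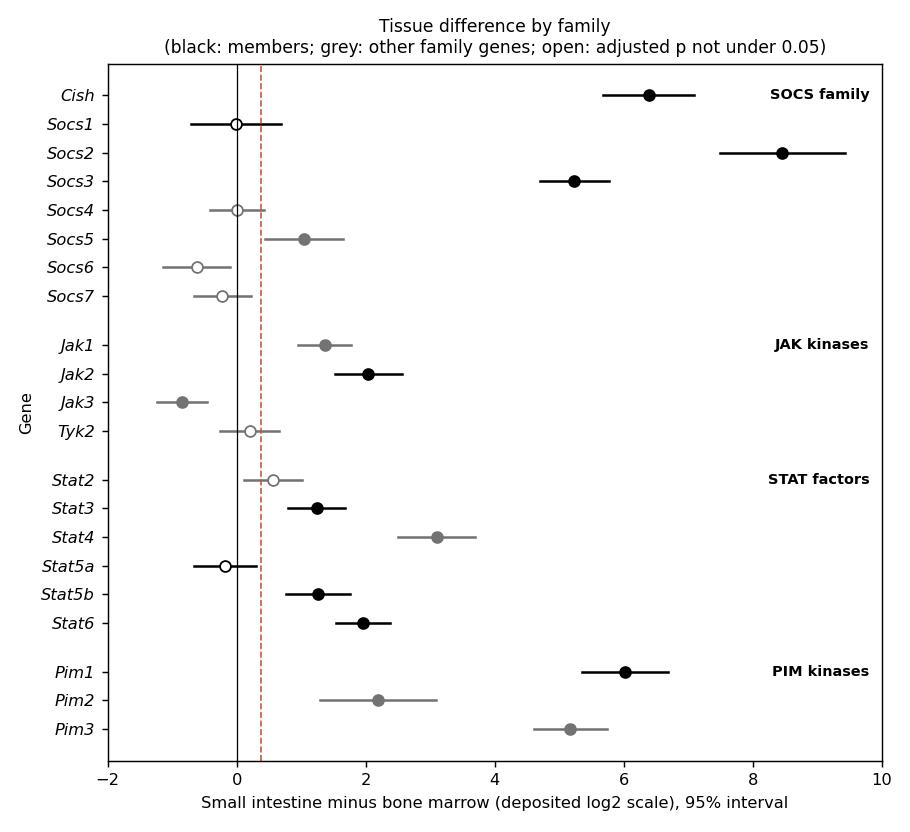
Tissue difference (small intestine minus bone marrow, deposited log2 scale) and its 95% limma interval for genes of the SOCS, JAK, STAT and PIM families. Black marks the 10 genes of the set, grey the other family genes, open circles an adjusted p of 0.05 or more, and the dashed red line the median difference of all genes, 0.37. Socs2 lies at 8.45, Cish at 6.38, Pim1 at 6.01 and Socs3 at 5.23, while Socs1, Socs4, Socs6 and Socs7 are open circles.

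The remaining genes of the pathway were read from lists of textbook roles, chosen with earlier results of these data known. Together with the family genes above, 89 other pathway genes were examined, of which 43 were higher and 15 lower in small intestine, with a median difference of 0.79 on the deposited log2 scale. After median-centring these numbers were 29 and 21. In all, 65.2% of the 89 passed, beside 34.9% of all genes. In the fit restricted to genes that averaged 10 reads or more, 58 of 78 passed, beside a similar share of all genes in it, 11824 of 16215. The counts of the lists below stand beside the same shares. SOCS proteins act as adaptors of a ubiquitin ligase, and of 4 subunits measured 0 were higher and 2 lower, Rnf7 at -1.67 ± 0.23 and Cul5 at -0.61 ± 0.18 (limma adjusted p = 0.000568 and 0.0273). Cul5 did not pass without BM_1 or without BM_4 (limma adjusted p = 0.0552 and 0.0518). The elongins Elob and Eloc differed by 0.03 and -0.11 and did not pass. Of the PIAS proteins, which bind STATs in the nucleus, 0 of 4 passed, although 1, Pias1, had an unadjusted p under 0.05 and passed in limma voom and in 7 other alternatives, and 2, Pias2 and Pias4, passed as lower after median-centring. The alternatives in which Pias1 passed included leaving out BM_5, SI_6 or SI_10 (limma adjusted p = 0.0394, 0.0225 and 0.0373). Pias1 differed by 0.52, Pias2 by -0.30, Pias3 by -0.05 and Pias4 by -0.49.

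Of 5 phosphatases of the pathway, Ptprc, which encodes the leukocyte antigen CD45, was higher by 3.25 ± 0.17 and Ptpn1 by 1.47 ± 0.19, and Ptpn11, which encodes SHP-2, was lower, at -0.88 ± 0.17 (limma adjusted p = 4.12e-06, 0.000498 and 0.00336). Ptpn6, which encodes SHP-1, differed by -0.19 and did not pass. Of 7 adaptors and ligases of JAK signalling, Cblb was higher by 1.17 ± 0.17 (limma adjusted p = 0.000902). Sh2b3, which encodes the JAK2 inhibitor LNK, was higher by 0.63 ± 0.18, and Sh2b2 was lower, at -1.19 ± 0.21 (limma adjusted p = 0.0278 and 0.00234). Median-centring gave Sh2b3 the opposite sign, at -0.27, and without BM_1 or BM_3 Sh2b3 did not pass (limma adjusted p = 0.0582 and 0.0533), while Ptpn1 and Cblb did not pass after median-centring. Cbl, Sh2b1 and Stam differed by -0.08, -0.19 and 0.10 and did not pass.

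Of 27 cytokine receptor genes that use JAKs, 17 were higher and 4 lower in small intestine. This was 77.8% passing, beside 34.9% of all genes. The share among genes that averaged 10 reads or more, 11824 of 16215 in their own fit, lay much nearer to it. The largest differences were those of Il10ra, from 10.9 ± 4.97 to 1537 ± 332 normalised counts (6.78 ± 0.32, limma adjusted p = 2.2e-06), and Il13ra1, from 4.38 ± 3.20 to 579.1 ± 47.1 (6.55 ± 0.51, limma adjusted p = 2.87e-05). Il21r and Csf3r, the latter encoding the G-CSF receptor of neutrophils, fell furthest, by 3.20 and 2.66 on the deposited log2 scale (limma adjusted p = 6.3e-05 and 1.9e-05). Chains of the IL-5 and GM-CSF receptors were among those higher, with Il5ra at 11.04 ± 5.31 normalised counts in bone marrow against 1107 ± 222 in small intestine, and Csf2rb at 2557 ± 136 and 13199 ± 1627. These chains were singled out after their values had been seen. Of 14 cytokine genes, 8 were higher and 1 lower, which was 64.3% passing. Il6 was higher by 7.78 ± 0.51 and Il4 by 5.66 ± 0.40, and Tslp was lower, at -2.85 ± 0.39 (limma adjusted p = 1.13e-05, 1.57e-05 and 0.000585).

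Of 18 textbook STAT target genes outside the 10, 10 were higher and 5 lower. This was 83.3% passing, beside 34.9% of all genes. The share among genes that averaged 10 reads or more, 11824 of 16215 in their own fit, lay much nearer to it. Junb, an AP-1 subunit, was higher by 6.29 ± 0.22 and Cebpb, a myeloid transcription factor, by 4.47 ± 0.33 (limma adjusted p = 6.14e-07 and 2.07e-05). Junb is also known as an early response gene of tissue dissociation. Chil3, a STAT6 target in macrophages that neutrophil precursors also express, was lower, at -9.32 ± 0.20, from 31235 ± 2283 to 45.6 ± 8.46 normalised counts, and Cebpd was lower, at -3.43 ± 0.21 (limma adjusted p = 1.01e-07 and 8.87e-06).

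Genes most like single members were sought by the Euclidean distance of the deposited values over the 8 libraries. Nearest to Socs2, the member with the largest rise, were Nr4a3 (distance 1.274), an early response nuclear receptor, Slc11a1 (1.515), a metal transporter of phagocyte vesicles, and P2ry10 (1.778), a receptor for lysophospholipids. Nr4a3 went from 3.84 ± 3.67 normalised counts in bone marrow to 2787 ± 543 in small intestine. Nearest to Stat5a, the member with the lowest difference, were Edc3 (0.4283), Tada2b (0.4441) and Ppp1r9b (0.4952), all with between 337.8 and 452.5 mean normalised counts in either tissue.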

How the data were processed

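RNA from 4 bone marrow and 4 small intestine libraries of sorted eosinophils was sequenced from amplified cDNA with single-end reads. The authors aligned reads to GRCm38 (Ensembl) with nf-core/rnaseq, counted them per gene and deposited variance-stabilised log2 values made with DESeq2 in R 4.0.3. On this scale 1 unit stands for about a doubling, or more where reads are few. The aligner, the strand setting and the handling of multiply matching reads were not given in the sources used here. Inverting the transformation gave reads that were whole within 0.05 for 100% of genes. Depth is thus known, and counting intervals cover counting error only.

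Tissues were compared in R 4.3.3 with limma 3.58.1, fitted to the deposited log2 values of the 8 libraries without covariates or filter, with Benjamini-Hochberg adjustment over 38392 genes and a 2-sided threshold of 0.05. The authors' count model was not run, since the deposited unit is log2, and the whole reads were tested with limma voom instead, as 1 of the alternatives. Differences are small intestine minus bone marrow. All 38392 identifiers were found in GENCODE M21 (GRCm38), 38000 with the same symbol. Other steps used Python 3.11.15, numpy 2.4.6 and pandas 2.3.3. There were 18 alternatives, 2 of them chosen after seeing the data.

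The members and gene lists were chosen with earlier results of these data known. Named genes were the 10 members, their family genes, up to 2 largest rises and falls per pathway list with overlapping members where fewer than 4 passed, the most abundant markers, and the 3 genes nearest to the members with the highest and the lowest difference, leaving out predicted genes. Pias1, Il5ra and Csf2rb were named after their values had been seen. Of 91 listed pathway genes, 89 were found, the other two being older symbols of Eloc and Elob, and 1 further family gene is not reported here. Single values per library were described without a test.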

Additional observations from a re-analysis of the deposited data

Results flagged for a closer look

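Among the members, the named pathway genes and the marker sums, the 4 libraries of a tissue were examined for one library far from the rest, and 2 of 120 groups stood apart, where chance sets apart about 1 in 20. Neither was a group of the 10 members, of which 0 of 20 stood apart. In bone marrow, BM_4 was far below the other libraries for Il6, with a gap of 0.907 of the range on the deposited log2 scale. BM_4 was also the lowest bone marrow library for Junb, with a gap of 0.86 of the range.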

How the results depend on the processing

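No paired analysis was possible because the labels of the tissues share no replicate numbers and the columns match no single sample. Socs2, Socs3, Cish, Jak2 and Pim1 passed under all 18 alternatives. With each library centred on its median, 5 members passed and 5 were higher, and over all genes 4285 were higher and 10216 lower. There, Jak2 gave 1.14 (limma adjusted p = 0.0426), and Stat3, Stat5b and Stat6 gave 0.34, 0.36 and 1.06 and did not pass. The median difference of all genes was -0.53 in that setting, 0.89 in limma voom, -0.03 after quantile normalisation and 0.31 after centring on genes that averaged 10 reads or more, which was chosen after seeing the data, as was leaving out BM_5 and SI_6 together. Centred on genes that averaged 10 reads or more, 8 members passed, all as higher. Quantile normalisation gave 1 member as lower, Socs1 at -1.08. The sign of Socs1 was positive in limma voom (0.053) and, with single libraries left out, its values ran from -0.17 to 0.19 (without BM_4 and without BM_5), and it was 0.30 without BM_5 and SI_6. The cause was not tested. Socs1 had too few reads for the filter on low values. Leaving out 1 library in turn changed the call of no member. Depth limited chiefly Socs1, Socs2 and Socs3 in bone marrow, with 26, 30 and 9 reads.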
